A study of Arabidopsis thaliana with 36 samples.

Results

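Seedlings of the quadruple mutant hy5 pif457 were compared after 1 h of simulated shade and at its start, across all genes. The comparison used the 6 RNA-seq libraries that carry this genotype and these times in the labels, 3 at 1 h and 3 at 0 h, of 36 libraries in the series. The genotype combines mutations in 4 transcription factor genes, HY5, PIF4, PIF5 and PIF7, and the sources used here do not name the alleles. The whole series holds 12 groups of 3 biological replicates, hy5 pif457, hy5, pif457 and the wild type Col-0 (WT), each at 0, 1 and 8 h of shade. All were 7-day-old whole Arabidopsis thaliana seedlings, several seedlings to a sample, grown in continuous white light and moved to the same light with added far-red light. The 0 h groups were harvested just before that move. No group stayed in white light for 1 h, so shade and elapsed time cannot be told apart in any of these responses.

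Neighbouring plants reflect and transmit far-red light, which lowers the ratio of red to far-red light and inactivates phytochrome B. PIF4, PIF5 and PIF7 are basic helix-loop-helix (bHLH) proteins that active phytochrome restrains. Once released they bind G-box and related E-box motifs and switch on genes of auxin synthesis and elongation within minutes to hours. HY5 is a basic leucine zipper protein that binds G-box motifs as well, promotes light-dependent development and is known to counter PIF activity at shared targets. The comparison asks which early shade responses remain in plants mutated for both kinds of factor.

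The transcripts of the mutated genes were read first. HY5 (AT5G11260) had 4.76, 4.49 and 4.59 CPM, counts per 1000000 counts of a library after TMM scaling, in hy5 pif457 at 1 h, against 5.18, 5.04 and 5.74 CPM at 0 h. These means were 38.8% of the WT mean at 1 h and 28.5% at 0 h, and every hy5 pif457 library lay below every WT library, where HY5 had 10.7, 12.7 and 12.3 CPM at 1 h and 20.4, 16.3 and 19.2 CPM at 0 h. PIF5 (AT3G59060) had 2.68, 2.46 and 3.11 CPM in hy5 pif457 at 1 h, against 2.38, 2.13 and 2.76 CPM at 0 h, or 9.0% and 6.29% of the WT means. PIF7 (AT5G61270) had 1.5, 1.93 and 1.87 CPM in hy5 pif457 at 1 h, against 3.43, 1.39 and 1.44 CPM at 0 h, or 21.4% and 11% of the WT means. PIF4 (AT2G43010) was not reduced, with 32.7, 27.7 and 32.1 CPM in hy5 pif457 at 1 h, against 37.1, 40.1 and 28.4 CPM at 0 h, where the WT means were 19.7 CPM at 1 h and 30.5 CPM at 0 h. Transcript counts do not show whether the alleles make protein. None of the 4 genes passed the test between 1 h and 0 h in hy5 pif457 (edgeR quasi-likelihood test, Benjamini-Hochberg adjusted p = 1 each), whereas in WT HY5 fell by 0.65 ± 0.13 (log2 fold change ± SE, adjusted p = 0.00243) and PIF7 by 1.2 ± 0.22 (adjusted p = 0.00081).

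Of 21562 genes tested, 39 were called between 1 h and 0 h in hy5 pif457 at an edgeR adjusted p under 0.05, which is 0.181% of the genes. The 12 higher genes are 0.0557% and the 27 lower genes 0.125% of the genes tested, and 1163 genes had an unadjusted p under 0.05. The same test called 1121 genes in WT (5.2%), 1459 in hy5 (6.77%) and 49 in pif457 (0.227%). The 3 libraries at 1 h did not overlap with the 3 at 0 h for any of the 39 genes, as was the case for 18.4% of all genes tested, 8.27% with 1 h higher and 10.2% with 1 h lower. Of these calls, 5 higher (0.0232% of genes tested) and 12 lower genes (0.0557%) changed at least 2-fold. Each of the 6 libraries moves the count by over 1.5 times: it was 20, 15 and 13 without replicate 1, 2 or 3 at 1 h, and 18, 21 and 16 without replicate 1, 2 or 3 at 0 h. The 8 genes that stayed called in all 6 of these fits, and in the 8 other fits tried, were ATHB2, AT3G13980, LEA3, AT2G27420, AT3G24460, ERF2, APR2 and AT4G28290. In bulk seedlings, fewer cells of a type and less RNA per cell cannot be told apart.

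**Figure D1:**
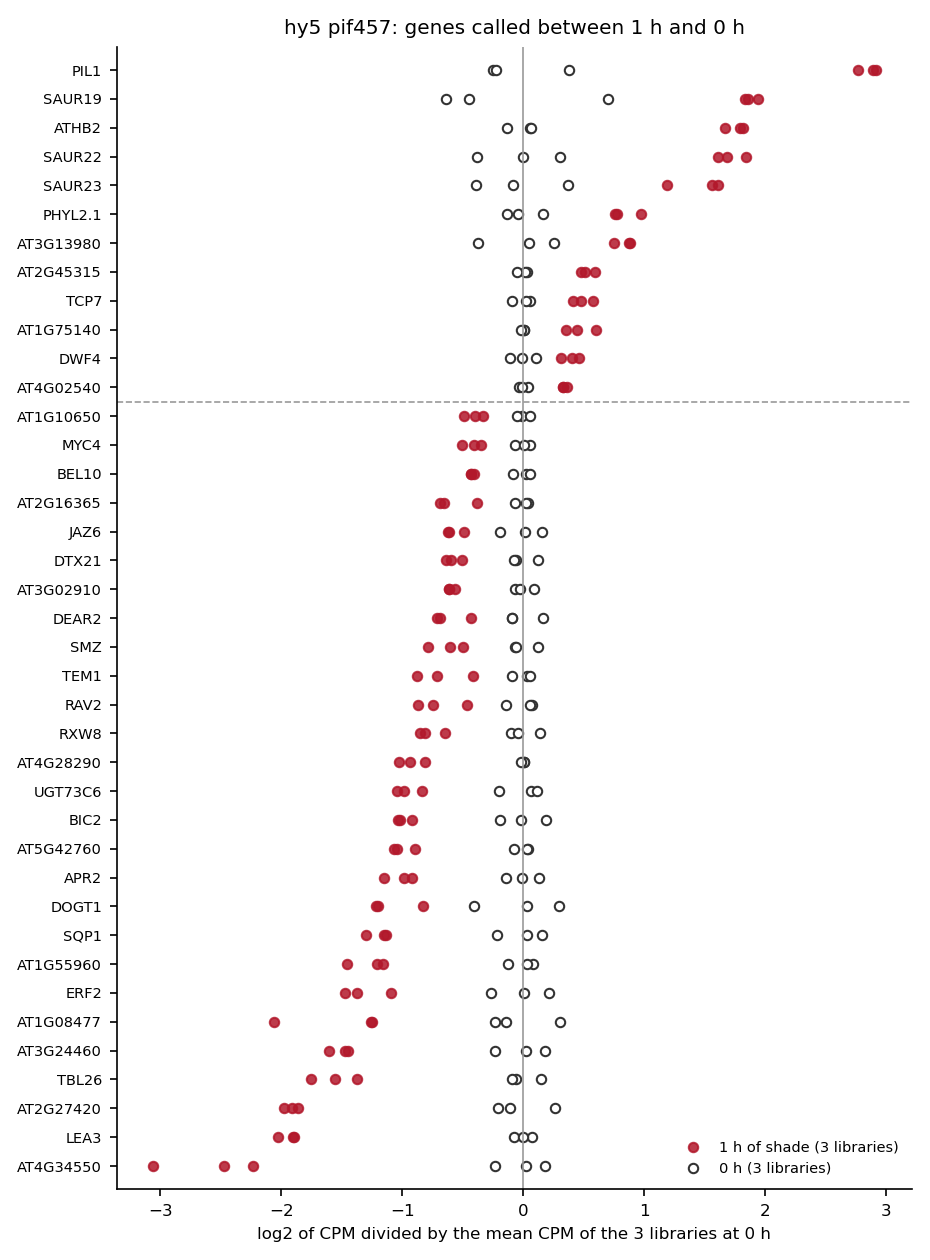
Level of each of the 39 called genes in the 6 hy5 pif457 libraries, as log2 of CPM divided by the mean at 0 h. Filled points are the 3 libraries at 1 h and open points the 3 at 0 h; the dashed line separates the 12 higher from the 27 lower genes, and in no gene do the filled and open points overlap.

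The 5 genes that rose at least 2-fold are all known from the shade or auxin response. PIL1 (AT2G46970), whose bHLH product is a classic reporter of low red to far-red light, had 2.39, 2.43 and 2.2 CPM in hy5 pif457 at 1 h, against 0.420, 0.271 and 0.276 CPM at 0 h (log2 fold change 2.86 ± 0.47, adjusted p = 0.00327). ATHB2 (AT4G16780), a class II homeodomain-leucine zipper gene that responds to the same ratio, had 18.9, 20.6 and 20.9 CPM in hy5 pif457 at 1 h, against 6.2, 6.22 and 5.43 CPM at 0 h (1.76 ± 0.14, adjusted p = 3.53e-08, the smallest of all genes in this comparison). Both genes stood far above 0 h in all 3 libraries at 1 h. Without 0 h replicate 3, PIL1 lost its call (adjusted p = 0.0602), while its log2 fold change stayed at 2.75.

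The other 3 are SAUR genes of 1 stretch of chromosome 5, which encode small proteins that are known to promote cell expansion. SAUR22 (AT5G18050) had 2.84, 2.68 and 3.16 CPM in hy5 pif457 at 1 h, against 1.09, 0.879 and 0.675 CPM at 0 h (1.72 ± 0.31, adjusted p = 0.00811). SAUR23 (AT5G18060) had 2.29, 2.96 and 3.06 CPM at 1 h, against 1.3, 0.947 and 0.768 CPM at 0 h (1.47 ± 0.30, adjusted p = 0.0333). SAUR19 (AT5G18010) had 1.71, 1.84 and 1.74 CPM at 1 h, against 0.350, 0.778 and 0.307 CPM at 0 h (1.88 ± 0.35, adjusted p = 0.0111), and its value is uncertain because 18.5% of its 50-base stretches also occur in other genes. All 3 were low in every library, and the groups did not overlap. SAUR20 (AT5G18020), from the same stretch, did not pass, with 6.31, 7.89 and 6.35 CPM at 1 h against 5.43, 4.80 and 4.39 CPM at 0 h (0.49 ± 0.22, adjusted p = 0.819). Leaving out single libraries ended the call of SAUR19 in 4 of 6 fits, of SAUR22 in 3 and of SAUR23 in 6.

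Sequence upstream of the highest and the lowest called gene with a symbol and enough reads (mean log2 CPM 2 or more; ATHB2 and LEA3), and of SAUR22 and SAUR19 as genes of 1 family that rose together, shows whether the letters of the G-box and of a PIF-binding E-box lie near their starts. The stretches are the 300 bases before the annotated gene start in the RefSeq annotation of TAIR10.1, read 5′ to 3′ on the strand of the gene, with capitals for a PIF-binding E-box (CACATG, or CATGTG on the other strand). ATHB2 is at chr4:9448814-9449113 (plus strand), SAUR22 at chr5:5975088-5975387 (minus strand), SAUR19 at chr5:5963406-5963705 (minus strand) and LEA3 at chr1:624568-624867 (minus strand).
ATHB2: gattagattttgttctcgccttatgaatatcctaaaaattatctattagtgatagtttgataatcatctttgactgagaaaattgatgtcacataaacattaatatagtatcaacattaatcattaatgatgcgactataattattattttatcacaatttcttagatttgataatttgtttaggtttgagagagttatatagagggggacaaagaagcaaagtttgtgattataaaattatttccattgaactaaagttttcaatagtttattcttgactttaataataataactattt
SAUR22: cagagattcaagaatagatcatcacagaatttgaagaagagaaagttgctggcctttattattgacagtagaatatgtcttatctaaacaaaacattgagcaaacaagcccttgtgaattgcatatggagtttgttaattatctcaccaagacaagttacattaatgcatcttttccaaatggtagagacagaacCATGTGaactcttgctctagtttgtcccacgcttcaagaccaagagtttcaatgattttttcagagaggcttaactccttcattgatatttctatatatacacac
SAUR19: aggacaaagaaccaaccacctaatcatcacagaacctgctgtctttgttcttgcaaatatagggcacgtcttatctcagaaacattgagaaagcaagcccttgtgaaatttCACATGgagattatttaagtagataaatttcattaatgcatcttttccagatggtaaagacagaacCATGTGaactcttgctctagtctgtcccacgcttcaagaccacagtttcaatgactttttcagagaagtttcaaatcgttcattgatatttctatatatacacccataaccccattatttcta
LEA3: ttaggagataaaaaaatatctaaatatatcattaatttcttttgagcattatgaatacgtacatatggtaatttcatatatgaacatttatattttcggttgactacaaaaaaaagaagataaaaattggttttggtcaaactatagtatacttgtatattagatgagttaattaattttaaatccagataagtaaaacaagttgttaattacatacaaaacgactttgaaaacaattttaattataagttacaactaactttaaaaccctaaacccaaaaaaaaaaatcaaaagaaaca
SAUR22 has 1 E-box of this form, 105 bases before the gene start, and SAUR19 has 2, at 189 and 123 bases, the stretch of SAUR19 also holding the noncoding RNA gene AT5G02835. Neither the E-box nor the G-box CACGTG, which reads the same on both strands, occurs in these windows of ATHB2 and LEA3. SAUR22 and SAUR19 lay below the level asked of ATHB2 and LEA3 (mean log2 CPM 0.72 and -0.08). SAUR23, of the same family and stretch, and PIL1 also rose at least 2-fold and are not shown. Neither motif lies in their 300-base windows. SAUR22 and SAUR19 were chosen after their values were seen, so their E-boxes do not stand for the SAUR genes that rose. Of 21430 tested genes with such a window, 13.2% hold the E-box and 7.96% the G-box. Among the called genes, the E-box is in 3 of 12 higher (AT1G75140, SAUR19 and SAUR22) and 3 of 27 lower (RXW8, ERF2 and AT2G16365), and the G-box in 1 of 12 higher (AT3G13980) and 3 of 27 lower (RXW8, ERF2 and AT4G28290). In the 1000 bases before the start, the E-box is in 6 of 12 and 10 of 27, against 38.3% of all windows, and the G-box in 4 of 12 and 5 of 27, against 15.8%. A match describes letters in a window and is not a binding site.

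The remaining 7 higher genes changed by less than 2-fold. PHYL2.1 (AT4G27840), which encodes a SNARE-like protein, had 8.15, 9.36 and 8.06 CPM in hy5 pif457 at 1 h, against 5.32, 4.33 and 4.61 CPM at 0 h (0.84 ± 0.15, adjusted p = 0.00724). AT3G13980, annotated with a SKI/DACH domain, had 17.56, 16.1 and 17.7 CPM at 1 h, against 9.87, 11.4 and 7.37 CPM at 0 h (0.84 ± 0.12, adjusted p = 0.00126). DWF4 (AT3G50660), a cytochrome P450 of brassinosteroid synthesis, was called by a narrow margin, with 16.8, 15.8 and 17.5 CPM at 1 h against 13.7, 11.8 and 12.6 CPM at 0 h (0.39 ± 0.09, adjusted p = 0.0495). In every one of these genes the lowest library at 1 h lay above the highest at 0 h. The call of DWF4 was lost in all 6 fits without a library and in 4 of the 8 other fits. AT2G45315, a noncoding RNA on the strand opposite to GAE4, changed by 0.53 ± 0.11, the uncharacterised gene AT1G75140 by 0.47 ± 0.09, and AT4G02540, annotated with a cysteine- and histidine-rich C1 domain, by 0.34 ± 0.07.

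TCP7 (AT5G23280), a TCP family transcription factor gene, rose in hy5 pif457 and fell in hy5. It had 39.4, 41.4 and 44.1 CPM in hy5 pif457 at 1 h, against 30.9, 30.2 and 27.8 CPM at 0 h (0.49 ± 0.09, adjusted p = 0.0152). In hy5 it had 25.1, 23.0 and 23.5 CPM at 1 h, against 35.2, 35.3 and 29.4 CPM at 0 h (-0.48 ± 0.09, adjusted p = 0.00125), and in WT it changed by -0.10 ± 0.09 (adjusted p = 0.583). The groups did not overlap in either mutant, and they lay on opposite sides. The response of hy5 pif457 minus that of hy5 was 0.97 ± 0.13 (adjusted p = 5.06e-05) and minus that of WT 0.59 ± 0.13 (adjusted p = 0.0194). In pif457 the change was 0.30 ± 0.09 (adjusted p = 0.301), and at 8 h hy5 pif457 had 28.5, 30.3 and 30.4 CPM. The call of TCP7 in hy5 pif457 was lost in all 6 fits that left out a library, in which its log2 fold change ran between 0.45 and 0.53.

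**Figure D2:**
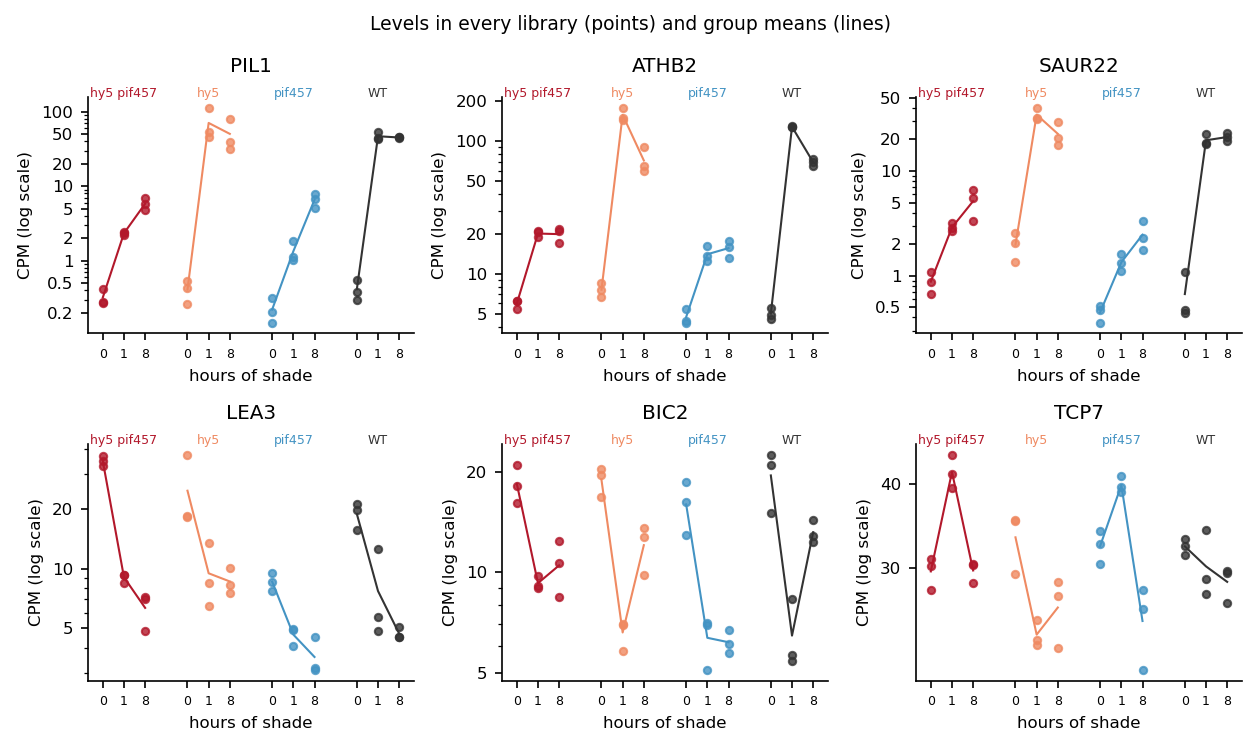
CPM on a log axis at 0, 1 and 8 h of shade in hy5 pif457, hy5, pif457 and WT for PIL1, ATHB2, SAUR22, LEA3, BIC2 and TCP7. Points are libraries and lines join group means; ATHB2 reached a mean of 20.1 CPM at 1 h in hy5 pif457, against 129 CPM in WT, and TCP7 at 1 h is above 0 h in hy5 pif457 and below 0 h in hy5.

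Among the 27 lower genes, the 12 that fell at least 2-fold belong to several kinds. LEA3 (AT1G02820), a gene of the late embryogenesis abundant 3 family, had 9.33, 9.30 and 8.50 CPM in hy5 pif457 at 1 h, against 36.6, 32.9 and 34.6 CPM at 0 h (-1.94 ± 0.29, adjusted p = 0.00148). AT2G27420, a cysteine proteinase gene, had 8.02, 8.70 and 8.39 CPM at 1 h, against 38.0, 27.4 and 29.4 CPM at 0 h (-1.92 ± 0.26, adjusted p = 0.000467). AT3G24460, annotated as a Serinc-domain protein, had 7.73, 7.58 and 6.92 CPM at 1 h, against 21.4, 18 and 23.9 CPM at 0 h (-1.51 ± 0.25, adjusted p = 0.00327). In these 3 genes every library at 1 h lay far below every library at 0 h. The F-box gene AT4G34550 had the lowest fold, -2.53 ± 0.53 (adjusted p = 0.0383), at levels of 0.184, 0.156 and 0.104 CPM at 1 h against 0.735, 0.879 and 0.982 CPM at 0 h, so it rests on few reads.

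Metabolic enzyme genes were among them. APR2 (AT1G62180), a reductase of sulfate assimilation, had 96.4, 113 and 108 CPM in hy5 pif457 at 1 h, against 234, 194 and 213 CPM at 0 h (-1.01 ± 0.16, adjusted p = 0.00327). The noncoding RNA AT1G08477 on the opposite strand of APR2 changed by -1.48 ± 0.29 (adjusted p = 0.0156), and since the sources used here do not state whether counting used strand, reads of the pair cannot be told apart. SQP1 (AT5G24150), annotated as an oxidoreductase, had 22.6, 20.3 and 22.7 CPM at 1 h, against 55.8, 43.1 and 51.0 CPM at 0 h (-1.19 ± 0.20, adjusted p = 0.00507). DOGT1 (AT2G36800), a glucosyltransferase that is known to act on brassinosteroids, fell by 1.07 ± 0.19 (adjusted p = 0.00555), and its neighbour UGT73C6 (AT2G36790) by 0.95 ± 0.20 (adjusted p = 0.0446). AT1G55960, annotated as a lipid transport family gene, had 85.7, 88.6 and 72.3 CPM at 1 h, against 210, 181 and 203 CPM at 0 h (-1.27 ± 0.20, adjusted p = 0.00327). TBL26 (AT4G01080), of a family of cell wall acetyltransferases, changed by -1.55 ± 0.29 and AT5G42760, annotated as a leucine carboxyl methyltransferase, by -1.0 ± 0.19. None of these genes overlapped between 1 h and 0 h. Of the 6 fits without 1 library, UGT73C6 and AT5G42760 stayed called in 0, and TBL26 and AT1G08477 in 2. DOGT1 and SQP1 stayed called in 3 of these fits, AT1G55960 in 5 and APR2 in 6.

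Transcriptional regulators made up a further group of the lower genes. ERF2 (AT5G47220), an ethylene response factor gene, had 2.00, 2.43 and 1.87 CPM in hy5 pif457 at 1 h, against 5.22, 6.02 and 4.30 CPM at 0 h (-1.3 ± 0.21, adjusted p = 0.00327). TEM1 (AT1G25560) and RAV2 (AT1G68840), related factors with AP2 and B3 domains, and SMZ (AT3G54990), an AP2-type factor, are known as repressors of flowering, and they fell by 0.66 ± 0.14, 0.68 ± 0.14 and 0.62 ± 0.11 on the log2 scale (adjusted p = 0.033, 0.0383 and 0.00549). TEM1 had 49.2, 40.1 and 35.8 CPM at 1 h, against 67.2, 68.5 and 61.5 CPM at 0 h, and at 8 h it stood at 106, 97.3 and 104 CPM, above 0 h. MYC4 (AT4G17880), a bHLH activator of jasmonate responses, had 19.4, 21.7 and 20.7 CPM at 1 h, against 28.6, 26.3 and 27.6 CPM at 0 h (-0.42 ± 0.08, adjusted p = 0.0118), and JAZ6 (AT1G72450), a repressor of the same pathway, fell by 0.57 ± 0.11 (adjusted p = 0.0137). The change of MYC4 differed from that in WT, where it was 0.10 ± 0.08, by -0.52 ± 0.11 (adjusted p = 0.00939), and was -0.43 ± 0.08 in both hy5 and pif457. DEAR2 (AT5G67190), with DREB and EAR motifs, fell by 0.60 ± 0.13, and BEL10 (AT1G19700), a homeodomain gene, by 0.42 ± 0.09. The calls of RAV2, BEL10, DEAR2 and TEM1 were each lost in at least 6 of 14 other fits.

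BIC2 (AT3G44450), known as an inhibitor of the blue light receptors called cryptochromes, had 8.99, 9.11 and 9.74 CPM in hy5 pif457 at 1 h, against 21.0, 18.19 and 16.1 CPM at 0 h (-0.99 ± 0.18, adjusted p = 0.00724). The same gene fell by 1.52 ± 0.18 in hy5, by 1.33 ± 0.18 in pif457 and by 1.59 ± 0.18 in WT. The 1 h libraries lay below the 0 h libraries in all 4 genotypes, and the difference between hy5 pif457 and WT, 0.60 ± 0.25, did not pass (adjusted p = 0.466). The other lower genes were RXW8 (-0.77 ± 0.16), the transporter gene DTX21 (-0.58 ± 0.11), the F-box family gene AT2G16365 (-0.57 ± 0.09), AT3G02910 (-0.60 ± 0.10), AT4G28290 (-0.92 ± 0.15) and AT1G10650 (-0.41 ± 0.09). Of the 39 called genes, 12 have exons that overlap those of another gene, 11 of them on the opposite strand, and the values of these 12 are uncertain to that extent. At 8 h the hy5 pif457 mean lay on the 1 h side of 0 h for 11 of 12 higher genes, all but DWF4. The same held for 24 of the 27 lower genes, all but TEM1, JAZ6 and ERF2. Both times are read against the 0 h libraries that the calls also used, which favours the same side. The share over all genes was not computed. TCP7 counts among the 11, although its mean was 29.7 CPM at 8 h and 29.6 CPM at 0 h.

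The other genotypes have their own 0 h libraries, so their calls for the same genes can be set beside these. Of the 12 genes that rose in hy5 pif457, 11 rose in hy5 (91.7%), 4 in pif457 (33.3%) and 8 in WT (66.7%), where the shares of all genes tested that rose were 3.62%, 0.0278% and 3.56%. Seen from the other lists, these are 1.41% of the 780 genes that rose in hy5, 66.7% of the 6 in pif457 and 1.04% of the 767 in WT. All 27 genes that fell in hy5 pif457 also fell in hy5, 14 (51.9%) fell in pif457 and 22 (81.5%) in WT, against 3.15%, 0.199% and 1.64% of all genes. These are 3.98% of the 679 genes that fell in hy5, 32.6% of the 43 in pif457 and 6.21% of the 354 in WT. PIL1, ATHB2, SAUR19 and SAUR22 rose, and 11 genes fell, in all 4 genotypes. The median change of the 27 lower genes was -0.95 in hy5 pif457, -0.94 in hy5, -0.70 in pif457 and -0.80 in WT.

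Few of the genes that responded in WT were called in hy5 pif457. Of the 241 genes that rose at least 2-fold in WT (1.12% of those tested), 5 were called higher in hy5 pif457. That is 2.07%, against 0.0557% of all genes tested. The median log2 fold change of the 241 genes was 0.16 in hy5 pif457, 1.54 in hy5, 0.15 in pif457 and 1.82 in WT. The test of the difference between responses called 136 of these 241 genes lower in hy5 pif457 than in WT. Across all genes it called 188 lower (0.872%) and 21 higher (0.0974%) than in WT. Among the 70 genes that fell at least 2-fold in WT (0.325%), 8 were called lower in hy5 pif457. That is 11.4%, against 0.125% of all genes tested. The median of the 70 genes was -0.54 in hy5 pif457 and -1.3 in WT, and 10 differed by the test. These sets were defined by the WT calls, so their medians in WT follow from that choice. The tests of the difference use the same WT libraries, so the choice also favours called differences within these sets.

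**Figure D3:**
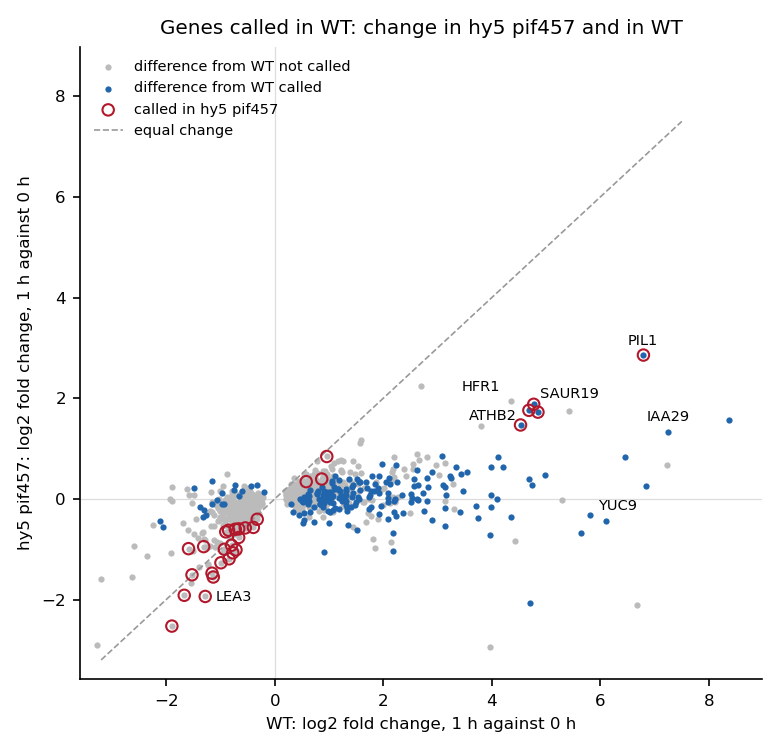
Log2 fold change between 1 h and 0 h in hy5 pif457 against that in WT for the 1121 genes called in WT, with the line of equal change. Circles mark genes also called in hy5 pif457, and blue points those whose response differed from WT; genes that rose in WT lie mostly near 0 in hy5 pif457.

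The strongest WT responses are given next gene by gene, and the same limit holds for genes picked by their response in WT. IAA29 (AT4G32280), an Aux/IAA repressor gene, had 1.03, 1.78 and 1.63 CPM in hy5 pif457 at 1 h, against 0.385, 0.744 and 0.614 CPM at 0 h (1.33 ± 0.42, adjusted p = 0.385), and its mean in WT was 69.8 ± 6.82 CPM at 1 h and 0.461 ± 0.0914 CPM at 0 h (SD, n = 3). YUC9 (AT1G04180), an enzyme gene of auxin synthesis, had 0.762, 1.5 and 1.27 CPM in hy5 pif457 at 1 h, against 1.09, 1.56 and 1.75 CPM at 0 h, and 42.7 ± 4.24 CPM in WT at 1 h against 0.757 ± 0.229 CPM at 0 h. HAT2 (AT5G47370), a homeodomain gene that responds to auxin, had 16.2, 16.9 and 15.2 CPM in hy5 pif457 at 1 h, against 21.8, 21.7 and 19.4 CPM at 0 h, and 200 ± 5.68 CPM in WT at 1 h against 14.9 ± 1.45 CPM at 0 h. The groups of YUC9 overlapped in hy5 pif457, those of HAT2 lay lower at 1 h and those of IAA29 higher, and none of these 3 changes passed, while WT at 1 h lay far above 0 h in all 3 genes. The differences of the responses, hy5 pif457 minus WT, were -5.91 ± 0.62, -6.14 ± 0.58 and -4.13 ± 0.25 for IAA29, YUC9 and HAT2 (adjusted p = 5.15e-07, 8.89e-08 and 1.85e-11). PIL1 and ATHB2, which rose in hy5 pif457, rose by less than in WT, with differences of -3.94 ± 0.74 and -2.92 ± 0.20. HFR1 (AT1G02340), a bHLH gene that limits shade growth, had 1.95, 0.967 and 1.63 CPM in hy5 pif457 at 1 h, against 0.385, 0.271 and 0.522 CPM at 0 h, but its change of 1.94 ± 0.49 did not pass (adjusted p = 0.132). It passed in the fit of the 6 hy5 pif457 libraries alone (1.94 ± 0.35, adjusted p = 0.0396).

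**Figure D4:**
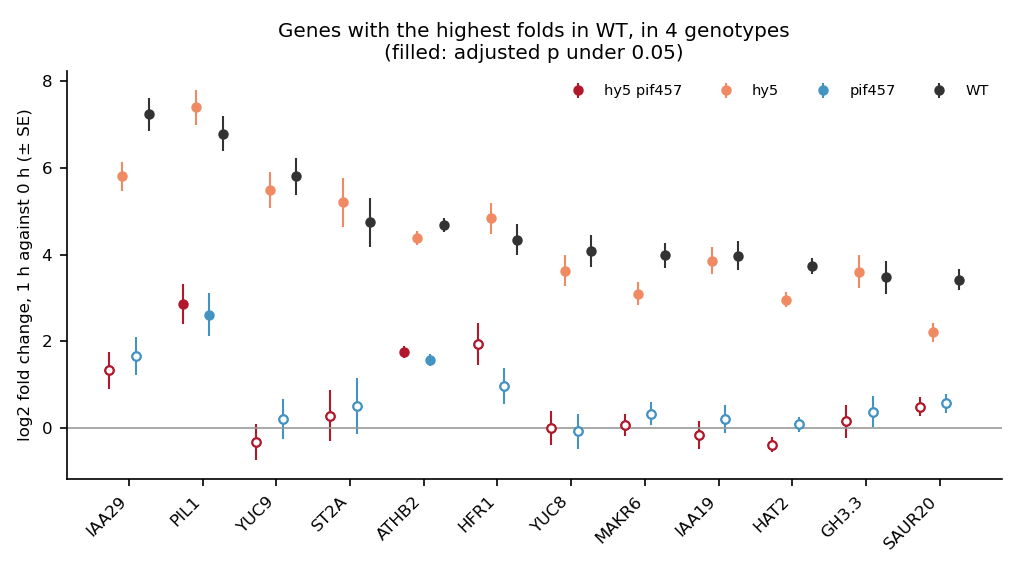
Log2 fold change between 1 h and 0 h, with its SE, in hy5 pif457, hy5, pif457 and WT for the 12 genes that rose most in WT, with log2 CPM averaging 2 or more over the 6 WT libraries at 1 h and 0 h. Filled points have an adjusted p under 0.05; in hy5 pif457 these are PIL1 and ATHB2.

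The responses of hy5 pif457 and hy5 compare plants with and without the PIF mutations in the hy5 mutant. The difference was called for 200 genes lower in hy5 pif457 (0.928% of the genes tested) and 58 higher (0.269%). ST2A (AT5G07010), a sulfotransferase gene of jasmonate inactivation, changed by 0.28 ± 0.58 in hy5 pif457 and by 5.21 ± 0.57 in hy5, a difference of -4.92 ± 0.81 (adjusted p = 0.000532). CKX5 (AT1G75450), a cytokinin oxidase gene, changed by -0.04 ± 0.32 in hy5 pif457 and by 3.5 ± 0.33 in hy5, a difference of -3.54 ± 0.45 (adjusted p = 1.48e-05). Genes that fell in hy5 but not in hy5 pif457 included LTP (AT2G15050), a lipid transfer protein gene, with 45.7, 44.2 and 51.0 CPM in hy5 pif457 at 1 h against 59.3, 55.2 and 50.1 CPM at 0 h, and 21.7 ± 2.2 CPM in hy5 at 1 h against 65.2 ± 12.7 CPM at 0 h. Its difference was 1.37 ± 0.17 (adjusted p = 1.48e-05). TAA1 (AT1G70560), the aminotransferase gene that starts auxin synthesis, changed by 0.18 ± 0.13 in hy5 pif457 and by -0.99 ± 0.13 in hy5, a difference of 1.17 ± 0.18 (adjusted p = 0.000305). PIF1 (AT2G20180), the PIF gene of seed germination, changed by 0.08 ± 0.12 in hy5 pif457 and by -0.91 ± 0.12 in hy5, a difference of 0.99 ± 0.18 (adjusted p = 0.00133). The count of 258 was 167 without hy5 pif457 1 h replicate 1, 171 without 0 h replicate 3, 451 without hy5 0 h replicate 3 and 834 in a fit of the 12 libraries compared alone.

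Between hy5 pif457 and pif457, which share the mutations in the PIF genes, the edgeR test called 0 genes (0%) different in response, and DESeq2 also called 0. With edgeR, 434 genes had an unadjusted p under 0.05. The median SE of this difference was 0.22 on the log2 scale, so small differences were not detectable, and a p that misses the threshold does not show that the responses were alike. ATHB2 changed by 1.76 ± 0.14 in hy5 pif457 and 1.58 ± 0.14 in pif457, PIL1 by 2.86 ± 0.47 and 2.61 ± 0.49, and BIC2 by -0.99 ± 0.18 and -1.33 ± 0.18. LEA3 changed by -1.94 ± 0.29 in hy5 pif457 and -0.89 ± 0.29 in pif457. Its levels at 0 h were 36.6, 32.9 and 34.6 CPM in hy5 pif457 and 7.67, 9.53 and 8.58 CPM in pif457, which did not overlap.

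Growth hormone genes were grouped in lists whose symbols were written from general knowledge. The lists were chosen with earlier results of these data known, so their counts describe and are not an independent test. Counts in hy5 pif457 are read against the 0.181% of all genes called there, and medians against that of all genes, -0.01. In WT, 3.56% of all genes tested rose and 1.64% fell. Of 25 shade markers, 2 rose in hy5 pif457 (median 0.01), PIL1 and ATHB2, while 21 rose in WT (median 2.65). Among 17 growth regulators of the HLH class 1 rose, again PIL1 (median -0.05), against 11 in WT. Of 29 SAUR genes, 3 rose (median 0.27), SAUR19, SAUR22 and SAUR23, against 22 in WT (median 2.65). None of 31 Aux/IAA and GH3 genes, which auxin induces, was called in hy5 pif457 (median 0.03), against 23 in WT (median 1.27). IAA19 (AT3G15540) had 4.55, 5.74 and 4.64 CPM in hy5 pif457 at 1 h, against 5.11, 6.09 and 5.43 CPM at 0 h, and its groups overlapped. None of 10 auxin synthesis genes was called (median -0.06), against 4 higher and 1 lower in WT. The response of hy5 pif457 was called lower than that of WT for 17 of the 25 shade markers and 20 of the 29 SAUR genes. The same held for 18 of the 31 Aux/IAA and GH3 genes and 4 of the 10 auxin synthesis genes. Over all genes tested this share was 0.872%.

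Other hormone lists held few calls. Of 18 brassinosteroid genes, DWF4 was called higher in hy5 pif457 (median 0.08), against 8 higher and 1 lower in WT. None of 23 gibberellin genes (median 0.02), 22 cytokinin genes (median -0.03) or 17 ethylene genes (median 0.03) was called in hy5 pif457, whereas in WT 8, 2 and 10 rose and 0, 1 and 0 fell. ACS4 (AT2G22810), an enzyme gene of ethylene synthesis, had 0.289, 0.187 and 0.596 CPM in hy5 pif457 at 1 h, against 1.58, 2.00 and 1.07 CPM at 0 h, and the groups did not overlap, but its change of -2.08 ± 0.53 did not pass (adjusted p = 0.138). In WT ACS4 rose by 4.69 ± 0.51 (adjusted p = 1.84e-07). Of 24 jasmonate genes 1 fell, JAZ6, and the median was -0.31 in hy5 pif457 and 0.11 in WT. GAI (AT1G14920), a DELLA repressor gene of gibberellin signalling, had 57.7, 55.5 and 58.8 CPM in hy5 pif457 at 1 h, against 46.3, 43.4 and 35.9 CPM at 0 h (0.45 ± 0.11, adjusted p = 0.102), and passed with DESeq2 alone of the fits tried (adjusted p = 0.0299).

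**Figure D5:**
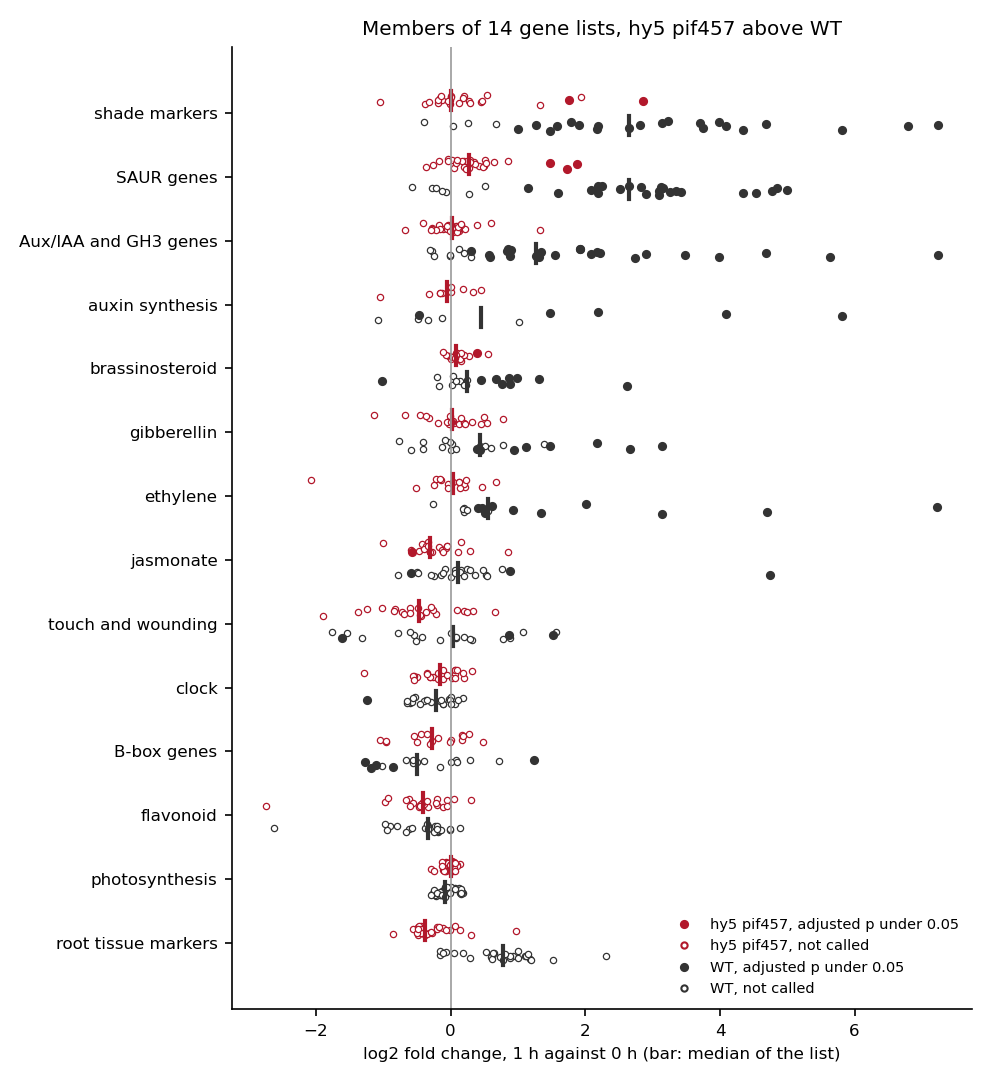
Log2 fold change between 1 h and 0 h for each tested member of 14 gene lists, hy5 pif457 above WT in each pair, with a bar at the median. Filled points have an adjusted p under 0.05; the shade marker, SAUR and Aux/IAA and GH3 lists have medians of 0.01, 0.27 and 0.03 in hy5 pif457, against 2.65, 2.65 and 1.27 in WT.

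The libraries of hy5 pif457 varied little, and a fit of the 6 libraries alone called many more genes. The median SD of log2 CPM over genes was 0.112 at 1 h and 0.115 at 0 h, the 2 lowest of the 12 groups, which ran up to 0.221, and the fit of all 36 libraries uses 1 estimate of the spread per gene for all groups. In the fit of the 6 libraries, 270 of 20597 genes were called (1.31%), 42 higher (0.204%) and 228 lower (1.11%), and 36 of the 39 genes were among them. The list members described next are given with the values of that fit and, apart from JAZ6, did not pass in the fit of all libraries.

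In that narrower fit, genes that answer to touch and wounding were among the lower calls. ZAT10 (AT1G27730), a zinc finger repressor gene, had 4.47, 4.09 and 2.59 CPM in hy5 pif457 at 1 h, against 11.5, 14.8 and 15 CPM at 0 h (-1.88 ± 0.19, adjusted p = 0.0045, and 0.365 in the fit of all libraries). CAF1A (AT3G44260), a deadenylase gene, had 6.26, 5.71 and 6.35 CPM at 1 h, against 16.8, 15.7 and 15.1 CPM at 0 h (-1.37 ± 0.09, adjusted p = 0.000692, and 0.585 in the fit of all libraries). Neither gene overlapped between the groups. With ERF5, ZAT12, SZF1 and SZF2 they made up the 6 of 22 touch and wounding genes called there, and JAZ1, JAZ6, JAZ9 and MYC2 were called in the jasmonate list. The list of touch and wounding genes had 0 of 22 called in the fit of all libraries, with a median of -0.47 in hy5 pif457 and 0.03 in WT. In hy5 pif457, 5 of the 22 changed upward in that fit, by up to 0.66, and the narrower fit called 0 higher.

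Clock, B-box and phenylpropanoid genes were also called lower in the narrower fit. RVE1 (AT5G17300), a clock-related MYB gene, had 40.2, 42.8 and 35.2 CPM in hy5 pif457 at 1 h, against 57.4, 55.8 and 61.6 CPM at 0 h (-0.56 ± 0.08, adjusted p = 0.0197), and CCA1, GI, LNK1 and PRR9 were the other clock genes called. BBX18 (AT2G21320), a B-box gene, had 9.09, 10.9 and 8.60 CPM at 1 h, against 20.9, 17.7 and 16.9 CPM at 0 h (-0.95 ± 0.12, adjusted p = 0.0124), beside BBX31 and BBX32. PAL1 (AT2G37040), which encodes the first enzyme of phenylpropanoid synthesis, had 132, 157 and 165 CPM at 1 h, against 225, 230 and 239 CPM at 0 h (-0.61 ± 0.09, adjusted p = 0.0177), and PAL2, F3H and UGT78D2 of the flavonoid list were called as well. In these genes the 2 groups did not overlap. HYH (AT3G17609), the closest relative of HY5, had 16.3, 15.5 and 12.8 CPM at 1 h, against 21.0, 21.2 and 25.4 CPM at 0 h (-0.59 ± 0.11, adjusted p = 0.0414, and 0.839 in the fit of all libraries). In the fit of all libraries, none of 24 clock genes (median -0.15), 17 B-box genes (-0.28), 23 flavonoid genes (-0.41) and 14 genes of the COP1, SPA and HY5 module (-0.18) was called in hy5 pif457.

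Fewer list members were called higher in the narrower fit. Beside ATHB2, PIL1, SAUR19, SAUR22 and SAUR23, which both fits called, they were HFR1, CPD, PHYA, ARR6, ACO4 and XTH16. CPD (AT5G05690), an enzyme gene of brassinosteroid synthesis, had 150, 128 and 150 CPM in hy5 pif457 at 1 h, against 99.4, 98.4 and 92.7 CPM at 0 h (0.57 ± 0.08, adjusted p = 0.0164, and 0.261 in the fit of all libraries). PHYA (AT1G09570), the gene of the far-red light receptor phytochrome A, had 118, 107 and 117 CPM at 1 h, against 84.5, 90.01 and 88.9 CPM at 0 h (0.38 ± 0.06, adjusted p = 0.0272, and 1 in the fit of all libraries). In both genes every 1 h library lay above every 0 h library. Of 16 ethylene genes tested in the narrower fit, ACO4 was higher (0.47 ± 0.09) and ACS6 lower (-0.51 ± 0.08), and both encode enzymes of ethylene synthesis. The cytokinin response regulator gene ARR6 was higher by 0.46 ± 0.09 and XTH16, of the cell wall loosening list, by 0.44 ± 0.08. Further lower calls were SPA3 (-0.37 ± 0.07) and CYP707A2 (-0.91 ± 0.16), an enzyme gene of abscisic acid breakdown.

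Library totals ran from 33111829 to 42564153 counts in hy5 pif457 at 1 h and from 31747850 to 33535653 at 0 h, and from 30846115 to 58025421 over the 36 libraries. Ribosomal RNA genes took 6.01% to 11.6% of counts in 12 libraries, all those of hy5 pif457 and those of pif457 at 8 h, and 0.467% to 2.63% in the other 24. The labels name a kit for mRNA, whereas the series' design text speaks of total RNA, and whether the preparation differed between libraries cannot be told from these sources. Within hy5 pif457 the share was 6.01% to 11.6% at 1 h and 7.95% to 10.08% at 0 h. The differences between the genotypes' responses therefore go with a difference in this share. Without the ribosomal RNA and organelle genes, 203 genes were called against WT and 254 against hy5. Markers of root tissue, present in whole seedlings, had a summed level of 2304 to 3180 CPM in hy5 pif457 at 1 h and 2436 to 3321 CPM at 0 h. Of these 29 markers 0 were called, 4 stood under 1 CPM in all 6 libraries, and the median was -0.38 in hy5 pif457 and 0.77 in WT. With the root marker score of each library as a covariate, 60 genes were called in hy5 pif457, 12 higher and 48 lower.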

How the data were processed

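RNA was measured in whole seedlings of 4 genotypes at 3 times of simulated shade, with a stranded mRNA kit per the labels' protocols, although the series' design text speaks of total RNA. Whether hy5 pif457 libraries were prepared differently cannot be told from these sources. The authors deposited expected counts per gene, all whole numbers, and the tools STAR 2.5.3a and RSEM 1.3.0 and the build TAIR10 are named in the submitters' processing notes, per the labels. The sources used here state neither a strand setting nor an annotation release. Every column was mapped to a sample by its label.

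Of 32833 gene IDs, 32548 were matched in the RefSeq annotation of TAIR10.1, which gave names and upstream sequence, and 5826 had no count in any library. All 36 libraries were fitted in 1 model of 12 groups with edgeR 4.0.16 in R 4.3.3 (TMM scaling, filterByExpr with a minimum count of 10 and total of 15, quasi-likelihood F-test, Benjamini-Hochberg adjustment over 21562 genes, called under 0.05). This fit shares 1 estimate of the spread per gene over all groups. Differences of responses are interaction contrasts of the same fit. The SE is the absolute log2 fold change divided by the square root of F. CPM are TMM-scaled. The test of 1 h against 0 h in hy5 pif457 was also run on simulated counts in which all groups had the same spread per gene. The real groups differ in spread, so that run cannot show how the unequal spread affects the calls. Totals limit precision at low counts, and p-values measure the spread between samples that the labels call replicates of a group.

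Members and lists were chosen with earlier results of these data known, and the lists' symbols were written from general knowledge. The 32 lists had 728 entries, of which 46 were not matched, 4 were dropped, 11 were repeats within a list and 667 were kept. Genes were named as follows: the mutated genes and their relatives; called genes with a symbol and a mean log2 CPM of at least 2, the 15 highest and 15 lowest; up to 4 list members with the smallest adjusted p; the 5 highest and 5 lowest differences; and the 12 highest called genes of WT whose groups did not overlap and whose log2 CPM averaged 2 or more over the 6 WT libraries at 1 h and 0 h. Of the called genes, 6 higher and 13 lower were named by this rule, the other called genes because all calls are described, and list members called in the fit of 6 libraries after their values were seen. SAUR22 and SAUR19 were chosen for sequence display in the same way.

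Alternatives were RLE size factors, no filter, a CPM filter, exclusion of ribosomal RNA and organelle genes, DESeq2 1.42.0, a root marker covariate, the compared groups alone, a replicate block and leaving out each library. Tables and figures used Python 3.11.15 with pandas 2.3.3, numpy 2.4.6 and matplotlib 3.10.9.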

Additional observations from a re-analysis of the deposited data

Results flagged for a closer look

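The response of hy5 pif457 between 1 h and 0 h differed from that of WT in 209 genes by the test of the difference itself (edgeR interaction contrast). The differences, hy5 pif457 minus WT, had edgeR adjusted p-values between 1.85e-11 for HAT2 and 0.0491 for GATA7. Among shade and SAUR genes they were -3.94 ± 0.74 for PIL1, -2.92 ± 0.20 for ATHB2, -2.89 ± 0.50 for SAUR19, -2.94 ± 0.31 for SAUR20, -3.13 ± 0.44 for SAUR22 and -3.06 ± 0.43 for SAUR23. Among auxin genes they were -5.91 ± 0.62 for IAA29, -4.14 ± 0.44 for IAA19, -3.31 ± 0.38 for IAA1, -3.32 ± 0.53 for GH3.3, -4.09 ± 0.52 for YUC8, -6.14 ± 0.58 for YUC9 and -4.13 ± 0.25 for HAT2. MAKR6 differed by -3.91 ± 0.37, ST2A by -4.46 ± 0.81 and MYC4 by -0.52 ± 0.11. The response was higher than in WT for TCP7 by 0.59 ± 0.13, for PIS2 by 0.59 ± 0.12, for AIF1 by 0.88 ± 0.16, for WAVH2 by 0.94 ± 0.15, for GATA7 by 0.97 ± 0.24 and for LTP by 1.09 ± 0.17.

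The response differed from that of hy5 in 258 genes, and the edgeR adjusted p-values of the genes named here lay between 2.25e-09 for HAT2 and 0.0195 for HFR1. Lower differences, hy5 pif457 minus hy5, were -4.54 ± 0.75 for PIL1, -2.90 ± 0.67 for HFR1, -2.62 ± 0.20 for ATHB2, -2.39 ± 0.42 for SAUR22, -2.34 ± 0.41 for SAUR23 and -1.72 ± 0.30 for SAUR20. Auxin genes differed by -4.47 ± 0.57 for IAA29, -4.02 ± 0.44 for IAA19, -3.46 ± 0.53 for GH3.3, -3.63 ± 0.51 for YUC8, -5.81 ± 0.57 for YUC9 and -3.34 ± 0.24 for HAT2. MAKR6 differed by -3.03 ± 0.37, ST2A by -4.92 ± 0.81 and CKX5 by -3.54 ± 0.45. Higher differences were 0.97 ± 0.13 for TCP7, 0.99 ± 0.18 for PIF1, 1.12 ± 0.21 for BBX14, 1.17 ± 0.18 for TAA1, 1.27 ± 0.27 for OFP16, 1.37 ± 0.17 for LTP and 1.51 ± 0.34 for PIF7. PIF7 is itself mutated in hy5 pif457.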

How the results depend on the processing

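For hy5 pif457 at 1 h against 0 h, the count of 39 was 86 with DESeq2, 60 with the root marker covariate, 270 in the fit of the 6 libraries alone and 249 there with a replicate block, and 13 to 21 when 1 library was left out. The other settings gave 30 to 38. The difference from hy5, 258, was 369 with DESeq2, 834 in the groups compared alone and 1170 there with a replicate block, and 167 to 451 without 1 library. The difference from WT, 209, was 268 with DESeq2, 245 in the groups compared alone, 200 there with the replicate block and 148 to 217 without 1 library. That from pif457 stayed at 0 under every setting run. No paired fit was used as the result: same-numbered libraries at 1 h and 0 h deviated with correlations of 0.24, -0.07 and 0.05 in hy5 pif457, 0.32, 0.31 and 0.41 in hy5, 0.68, 0.57 and 0.24 in pif457 and 0.11, -0.01 and -0.51 in WT, and of the 18 same-numbered pairs in the groups of each difference, 6 with hy5, 5 with pif457 and 7 with WT had a correlation over 0.1. DESeq2 calls in hy5 pif457 split into 18 higher and 68 lower. Of the values of named genes under these settings, 2619 kept their side of the threshold, 177 lost a call, 55 gained one and 0 were classed as reversed. Among the 39 called genes, 0 changed sign in the other fits of hy5 pif457 at 1 h against 0 h. The cause of these shifts was not tested, apart from fewer libraries when 1 is left out. Low counts limit PIL1, the SAUR genes and AT4G34550.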

Other observations

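The lists of this paragraph held 0 calls in hy5 pif457 with edgeR between 1 h and 0 h, and are given as medians of log2 fold changes. Genes of the heat shock list, chaperones and transcription regulators among them, had a median of 0.47 over 11 genes in hy5 pif457 and 0.56 in WT, where 3 rose. Genes of dark and sugar starvation had a median of 0.32 over 20 genes in hy5 pif457 and 0.27 in WT, where 2 rose. Genes of cold, abscisic acid and drought had a median of -0.25 over 23 genes in hy5 pif457 and -0.01 in WT, those of iron uptake -0.19 over 19 genes and 0.80, and those of salicylate and immunity -0.16 over 17 genes and 0.39. Nitrate genes had a median of -0.11 over 16 genes in hy5 pif457 and 0.28 in WT. The medians in hy5 pif457 were 0.00 over 39 photosynthesis genes, -0.03 over 21 genes of chlorophyll and light stress, -0.07 over 21 glucosinolate genes, 0.07 over 25 cell cycle genes and 0.03 over 26 genes of cell wall loosening, of which 3 rose in WT.

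Among light signalling lists, the 8 PIF family genes had a median of -0.03 in hy5 pif457 and -0.41 in WT, where 1 rose and 2 fell, and the 15 genes of photoreceptors and partners had 0.01 and 0.11, with 5 higher in WT. None of the tested genes of either list was called in hy5 pif457. BIC2, which was called lower (-0.99 ± 0.18), is not among the 15 genes, although the list was written with it. PIF8 (AT4G00050) is likewise not among the 8 PIF genes, and it was not called. It had 36.1, 33.9 and 32.8 CPM in hy5 pif457 at 1 h, against 49.0, 46.6 and 53.3 CPM at 0 h, without overlap.

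Markers of other tissues were read in the same way. The 14 stomatal lineage markers had a median of 0.21 in hy5 pif457 and a summed level of 196.9 to 213.3 CPM at 1 h, against 164.7 to 197.1 CPM at 0 h. The 13 vascular markers had a median of 0.13 and the 14 tested leaf and shoot meristem markers 0.02. None of these markers was called in hy5 pif457.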
